A study of Mus musculus with 12 samples.

Results

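HOX genes encode homeodomain transcription factors that give cells an address along the head-to-tail axis of the embryo and along the limbs. In the mouse they lie in 4 clusters, HoxA to HoxD, and are numbered as paralog groups 1 to 13. Genes of group 1, at the 3′ end of a cluster, are switched on first and furthest towards the head, and those of group 13 last and nearest the tail. Fibroblasts from adult tissue are known to keep much of this pattern in culture, so that the HOX genes a fibroblast transcribes reflect the site it came from. The HOX genes were taken as every gene whose symbol is Hox, a letter from a to d and a number from 1 to 13. This gave 39 genes of the 27179 Entrez gene IDs in the count tables, and each of the 39 had a row. The values of 38 of them are described.

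The cells were NIH3T3, an immortalized line of mouse embryonic fibroblasts, without endogenous RelA (RelA-/-) and carrying a fusion of RelA to the red fluorescent protein DsRed. RelA is a subunit of the transcription factor NF-κB, and all groups shared this genotype. The 4 groups of 3 samples were labelled as IL-1β at 0.2 ng/mL, LPS (bacterial lipopolysaccharide) at 100 ng/mL, PAM at 0.2 ng/mL, which the labels do not spell out, and media. Each was held for 2 h in microfluidic devices. The study set the stimuli against each other and against media. The 9 tables given for LPS, PAM and media all repeat IL-1 replicate 3 count for count, so only the 3 IL-1 libraries had values of their own. No HOX gene could be compared between stimuli, and what follows describes IL-1-treated cells, with no unstimulated cells beside them. No label ties the 3 libraries to cultures of their own, and the SD can therefore be a technical spread.

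The libraries held 17254518, 18091073 and 18578859 counts, for replicates 1, 2 and 3. Values are given in CPM (counts per 1000000 counts of a library), or in CPM per kb of exon where genes are compared. Detection means a level of at least 1 CPM in all 3 libraries. Rela had 641, 551 and 723 counts, and a count per gene cannot tell the deleted allele from the fusion. Of 15 fibroblast markers, 13 were detected, and they summed to 8991 to 9355 CPM. Vim, the intermediate filament of mesenchymal cells, averaged 3162 CPM. Fap had 0 counts and Lum had 10, 21 and 2. Of the markers of other cells, 4 of 7 macrophage, 1 of 6 endothelial, 2 of 6 neural, 0 of 7 epithelial and 0 of 4 pluripotent ones were detected. The macrophage list summed to 18.2 to 27.6 CPM, and replicates 1, 2 and 3 had 187, 182 and 141 counts of Cd74, 171, 222 and 128 of Lyz2, 32, 40 and 27 of Csf1r and 20, 55 and 36 of Cd68. The others of that list, Ptprc, Itgam and Adgre1, had at most 6 counts in a library. The endothelial list summed to 13.7 to 15.4 CPM, nearly all of it Egfl7, and the neural list to 87.3 to 93.7 CPM, mostly Tubb3. The part of any other cell type in the HOX values was not tested.

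Transcripts of the 38 HOX genes described were close to absent from these fibroblasts. Of the 38, 0 were detected, whereas 41.3% of all gene IDs and 51.1% of 20983 protein-coding genes were. The median of the 38 averaged 0.0179 CPM, against 1.84 CPM for the median protein-coding gene and 0.183 CPM for the median gene ID. Of the 38 genes, 18 (47.4%) had 0 counts in all 3 libraries, compared with 22.8% of protein-coding genes and 30% of gene IDs. A count of 0 in all 3 libraries allows up to 3 counts, or 0.0556 CPM, and this limit covers counting error only. Together the 38 genes had 25, 38 and 37 counts, or 1.85 ± 0.349 CPM (SD, n = 3). Replicate 1 was the lowest library and the other pair were alike. Hoxa5 alone held 4, 19 and 21 of these counts and set this order. It was not shared by all, as Hoxa6 had 9, 4 and 2. In bulk RNA, a few cells with much of a transcript and many cells with little of it cannot be told apart.

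**Figure D1:**
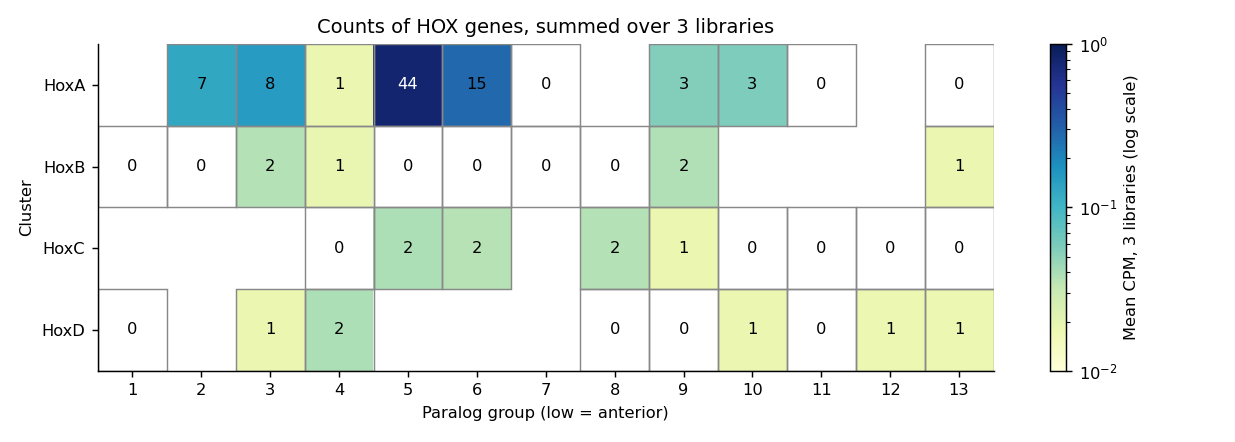
Counts of each of 38 HOX genes summed over the 3 IL-1 libraries (number in the cell), by cluster (rows) and paralog group (columns). Colour is the mean CPM on a log scale, white cells with a border had 0 counts, and positions without a border hold no gene described here; Hoxa5 has the most with 44, and Hoxa6 is next with 15.

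HoxA held most of what was counted. Hoxa5 (chromosome 6, 52201754 to 52204587, minus strand, build GRCm38), known for its part in lung and axial skeleton development, had 4, 19 and 21 counts, or 0.232, 1.05 and 1.13 CPM. It passed 1 CPM in replicates 2 and 3 and missed it in replicate 1, which decided the call. The mean was 0.804 ± 0.497 CPM (SD, n = 3), with a coefficient of variation of 61.8%, against 26.1% from counting alone. Hoxa6, its neighbour and a gene of the thoracic skeleton, had 9, 4 and 2 counts, with a mean of 0.283 CPM and a coefficient of 75.5% against 44.7% from counting. Replicate 1 was the highest library for Hoxa6 and the lowest for Hoxa5, but the counting intervals of Hoxa6 overlapped between all libraries. Per kb of exon, Hoxa5 was the highest of the 38 genes at 0.428 CPM per kb. Hoxa6 came next at 0.324, and their ranges of 0.124 to 0.602 and 0.123 to 0.597 overlapped. Per kb of coding sequence Hoxa5 averaged 0.993 and Hoxa6 0.407, in the same order.

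Hoxa2, which patterns the second pharyngeal arch, had 0, 1 and 6 counts, and Hoxa3, needed for thymus and parathyroid, had 4, 1 and 3. Hoxa3, Hoxa5 and Hoxa6 were the 3 of the 38 genes with a count in every library. Hoxa4 had 0, 1 and 0 counts, Hoxa9 had 0, 2 and 1, and Hoxa10 had 2, 1 and 0. Hoxa7, Hoxa11 and Hoxa13 had 0 counts throughout. Hoxa9 and Hoxa10 are known from blood and uterus and Hoxa11 and Hoxa13 from limb and urogenital tract. Exon overlap limits some of these values, as 27.1% of the exon length of Hoxa3 and 35.0% of that of Hoxa11 belong to other genes too, while Hoxa5 and Hoxa6 share none.

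**Figure D2:**
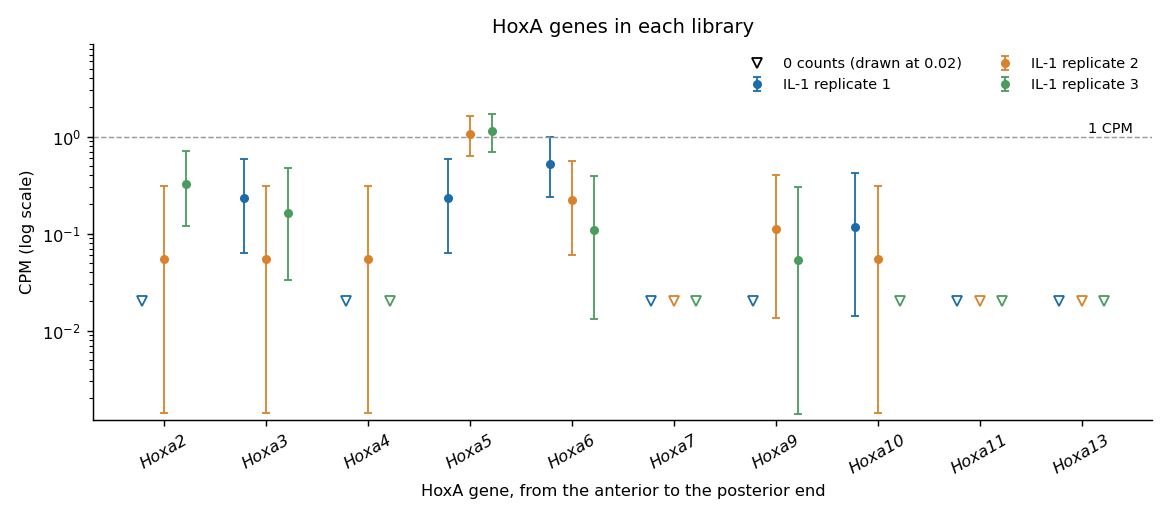
CPM (log axis) of 10 HoxA genes, in order along the cluster, in each of the 3 IL-1 libraries, with exact 95% Poisson intervals as bars and open triangles for 0 counts. Hoxa5 crosses 1 CPM in replicates 2 and 3 only, and no other gene shown reaches it.

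By position, the 10 HoxA genes held 87.4 ± 3.87% of the level per kb of the 38 genes (SD, n = 3). Of their 81 counts, groups 2 to 4 had 16, groups 5 to 7 had 59 and groups 9 to 13 had 6 over the 3 libraries. The highest levels thus lay at Hoxa5 and Hoxa6, with lower ones on either side. Spearman's rho between level per kb and paralog number was -0.67 over the 10 HoxA genes, which come from the same libraries and include 3 at 0. It is given as a description only. In the other clusters rho was 0.33 (HoxB, 10 genes), -0.53 (HoxC, 9 genes) and 0.24 (HoxD, 9 genes), but each rested on 6 or 7 counts in all, and that of HoxD changed sign with the length used.

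HoxB, HoxC and HoxD, with 28 genes, had 6, 9 and 4 counts in replicates 1, 2 and 3. No gene of these clusters had more than 2 counts in a library, none had counts in all libraries, and 15 of the 28 had 0 in each. HoxB had 2, 4 and 0 counts, with 0 for 6 of its 10 genes, namely Hoxb1, Hoxb2 and the run of neighbours Hoxb5, Hoxb6, Hoxb7 and Hoxb8. Hoxb3 had 0, 2 and 0 counts, Hoxb4 had 1, 0 and 0, Hoxb9 had 1, 1 and 0, and Hoxb13 had 0, 1 and 0. These genes include the hindbrain genes Hoxb1 and Hoxb2 and the prostate gene Hoxb13.

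HoxC had 2, 3 and 2 counts, with 0 for Hoxc4 and for the whole posterior run Hoxc10, Hoxc11, Hoxc12 and Hoxc13. Hoxc10 is a gene of the hindlimb and Hoxc13 of hair and nail. The counts that it did have lay in the middle of the cluster. Hoxc5 had 2, 0 and 0, Hoxc6 had 0, 0 and 2, Hoxc8 had 0, 2 and 0, and Hoxc9 had 0, 1 and 0. HoxD, whose posterior genes build the digits, had 2 counts in each library, with 0 for Hoxd1, Hoxd8, Hoxd9 and Hoxd11. Hoxd4 had 2, 0 and 0 counts, Hoxd3 and Hoxd10 had 0, 1 and 0 each, and Hoxd12 and Hoxd13 had 0, 0 and 1 each. More than 50% of the exon length of Hoxd3 (62.8%), Hoxb3 (52.9%) and Hoxd4 (52.3%) belongs to other genes too, so even these few counts are uncertain. No neighbouring pair in the order of levels below Hoxa6 was separated by more than its spread. Across clusters, the genes of paralog groups 7 and 11 had 0 counts in every library, and groups 9 to 13 together had 3, 7 and 3.

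Most of the protein-coding genes flanking the clusters were detected, but not always the nearest ones. Of the 14 rows inside the clusters that are not HOX genes, 0 were detected and 10 had 0 counts, with 7 counts between them. Hotair, the noncoding RNA of HoxC, had 0, as did Hoxaas3, Mira and Gm11538 and the 6 microRNA rows. The rows with a count were 5730596B20Rik with 1, 2 and 0, Hoxa11os with 0, 2 and 0, Gm53 with 0, 1 and 0 and Hoxd3os1 with 0, 1 and 0. The 3 nearest protein-coding genes on each side gave 23 with a row, which held 109294 counts. Of the 23, 18 were detected, against 51.1% of protein-coding genes. Among those next to a cluster, Evx1, Evx2, Skap1 and Ttll6 were not detected. Levels of the neighbours are mean CPM, not divided by length.

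On the anterior side of HoxA, Skap2 lay 149.9 kb from Hoxa2 and averaged 90.9 CPM, and it was followed by Snx10 at 102.5 and Cbx3 at 24.9. Beyond its group 13 end, the homeobox gene Evx1 had 0 counts, and Hibadh, 285 kb away, averaged 109 CPM and Tax1bp1 254. The detected neighbours nearest to a cluster were those of HoxD. Mtx2, a mitochondrial import protein 60.7 kb beyond its group 1 end, averaged 176 ± 9.60 CPM (SD, n = 3), and Hnrnpa3 averaged 20.8. Gm50595 was not analysed here. At the group 13 end Evx2, 6.7 kb away, had 0 counts, Lnpk, 88.8 kb away, averaged 64.2 ± 3.66 CPM (SD, n = 3) and Atp5g3 515.

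HoxC lay between Smug1, at 35.8 ± 1.92 CPM (SD, n = 3) and 116 kb from its group 1 end, and Calcoco1 at 27.4. Further out were Cbx5 at 466 and Hnrnpa1 at 24.3 on the group 1 side, and Atp5g2 at 3.30 and Atf7 at 10.2 on the other. The genes nearest to HoxB had low levels on both sides. Skap1 averaged 0.547 CPM, Ttll6 0.461 and Calcoco2 0.146, none of them detected. The next genes on the group 1 side were Snx11 at 24.4, 399 kb away, and Cbx1 at 46.9. On the other side it was Atp5g1 at 30.2, 119 kb away. Cbx3 and Hnrnpa1 have processed copies elsewhere in the genome, which makes their counts uncertain.

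**Figure D3:**
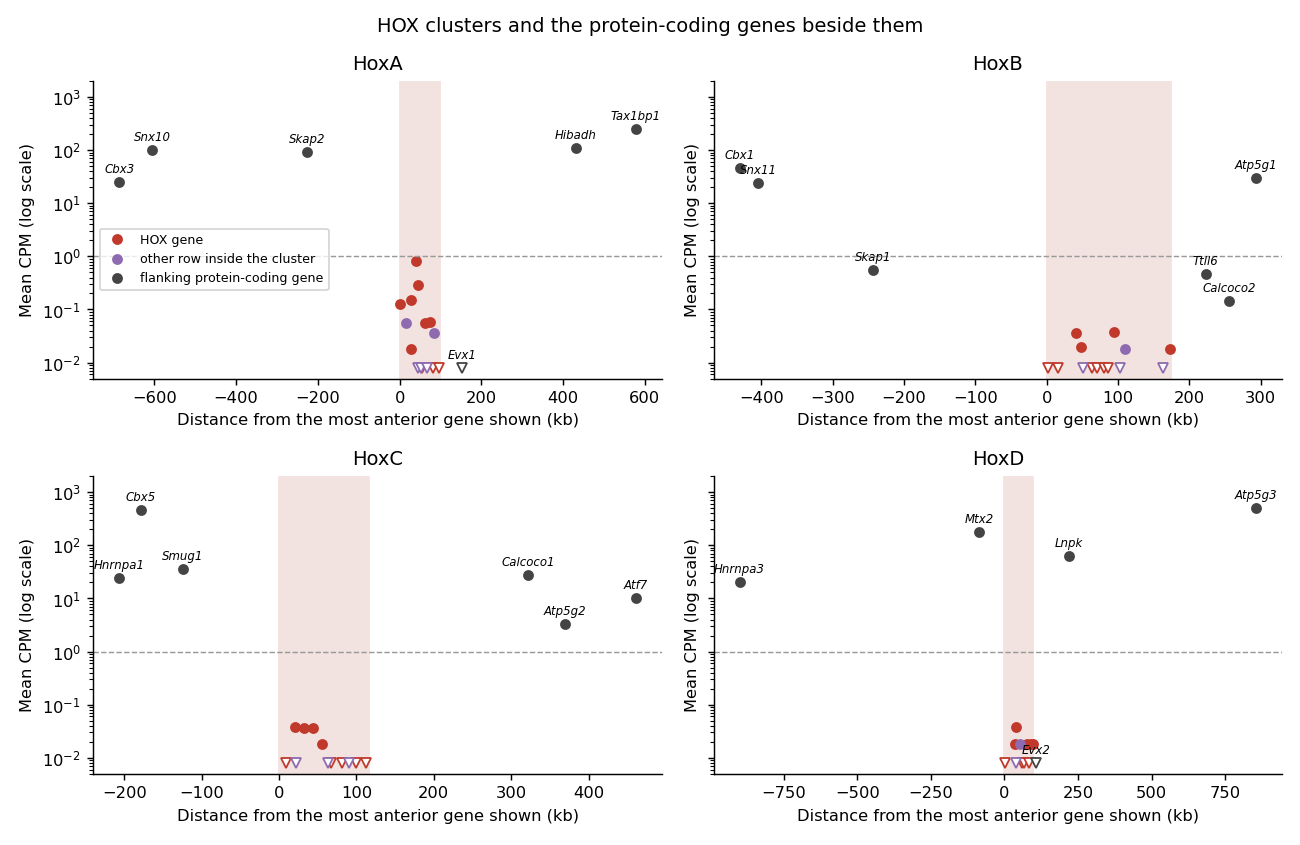
Mean CPM over the 3 IL-1 libraries (log axis) against distance in kb from the most anterior gene shown of each cluster, for HOX genes, other rows inside the cluster and flanking protein-coding genes; open triangles had 0 counts and the shaded band spans the HOX genes shown. On both sides of every band some flanking genes stand above the dashed line at 1 CPM, and no gene drawn within the bands does.

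Genes with many CpG dinucleotides around their start are mostly active across cell types. HOX promoters are a known exception that Polycomb complexes can hold silent. Whether promoter sequence or Polycomb had a part in the HOX counts of these cells was not tested. RefSeq promoters of GRCm38.p6, 250 bases before to 50 after the start, matched 22 of the 38 HOX genes. They are shown for those of the 4 highest HOX genes per kb and of the highest gene of each cluster that have an entry. CpG dinucleotides, searched as CG, are in capitals. The genes without an entry are Hoxb9 and Hoxc6. The windows are chr6:52204538-52204837, minus strand (Hoxa5), chr6:52208623-52208922, minus strand (Hoxa6), chr6:52164782-52165081, minus strand (Hoxa2), chr6:52213018-52213317, minus strand (Hoxa3), and chr2:74721728-74722027, plus strand (Hoxd4).
Hoxa5: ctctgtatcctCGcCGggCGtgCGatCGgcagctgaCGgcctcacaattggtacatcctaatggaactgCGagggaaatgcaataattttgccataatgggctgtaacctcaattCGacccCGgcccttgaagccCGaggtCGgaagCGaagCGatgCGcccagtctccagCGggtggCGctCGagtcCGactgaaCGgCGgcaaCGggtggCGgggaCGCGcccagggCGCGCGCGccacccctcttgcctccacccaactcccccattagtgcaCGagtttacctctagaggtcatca
Hoxa6: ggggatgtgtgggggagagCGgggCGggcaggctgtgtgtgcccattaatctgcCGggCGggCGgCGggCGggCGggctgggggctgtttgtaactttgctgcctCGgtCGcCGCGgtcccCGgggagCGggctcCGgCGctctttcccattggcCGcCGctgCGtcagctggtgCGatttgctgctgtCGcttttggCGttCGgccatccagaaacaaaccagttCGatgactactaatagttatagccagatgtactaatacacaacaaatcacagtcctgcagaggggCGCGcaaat
Hoxa2: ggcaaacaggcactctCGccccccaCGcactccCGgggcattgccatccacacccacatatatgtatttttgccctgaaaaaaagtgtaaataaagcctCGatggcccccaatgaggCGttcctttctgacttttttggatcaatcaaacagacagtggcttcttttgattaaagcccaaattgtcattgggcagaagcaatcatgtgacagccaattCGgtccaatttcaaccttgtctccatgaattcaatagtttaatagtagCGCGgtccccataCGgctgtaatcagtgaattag
Hoxa3: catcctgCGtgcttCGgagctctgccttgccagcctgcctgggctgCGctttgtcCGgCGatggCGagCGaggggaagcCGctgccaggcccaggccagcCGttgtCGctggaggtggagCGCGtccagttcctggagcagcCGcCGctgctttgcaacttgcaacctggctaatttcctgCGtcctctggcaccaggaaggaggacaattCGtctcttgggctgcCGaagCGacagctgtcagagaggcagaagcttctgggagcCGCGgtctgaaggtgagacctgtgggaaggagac
Hoxd4: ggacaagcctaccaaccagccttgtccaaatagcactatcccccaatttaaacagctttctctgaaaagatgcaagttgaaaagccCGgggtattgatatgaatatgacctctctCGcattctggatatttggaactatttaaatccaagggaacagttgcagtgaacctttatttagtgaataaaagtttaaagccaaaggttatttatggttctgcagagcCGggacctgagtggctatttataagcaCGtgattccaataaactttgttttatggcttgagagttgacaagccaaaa

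In the windows shown, Hoxa5, Hoxa6 and Hoxa3 held 29, 26 and 20 CpG, Hoxa2 held 9 and Hoxd4 held 4. These genes were chosen by level. Among the others, Hoxa13 held 45 and Hoxd1 held 29, both with 0 counts. Hoxa7 and Hoxc4, with 9 CpG each, had 0 counts as well. The start taken for Hoxa3 lies upstream of Hoxa6, so that this window is not next to the coding part of Hoxa3. The motif CG, which reads the same on both strands, was in 95.6% of 20439 promoters, so its number rather than its presence sets promoters apart. The HOX promoters with an entry had a median of 14.5 CpG (range 4 to 45) and 57.7% GC. Apart from Hoxb1, Hoxb4, Hoxb8 and Hoxc4, they belong to HoxA and HoxD genes. The promoters of other protein-coding genes had a median of 14 (range 0 to 67) and 57.0% GC. A promoter with at least 50% GC and an observed over expected CpG ratio of at least 0.6 was called CpG-rich. Of the 11 HOX genes with such a promoter 0 were detected, whereas 80.7% of the 8351 other genes with one were. Because 0 of all 38 HOX genes were detected, the HOX value was fixed before the genes were split by CpG. Of the 8411 other genes with a CpG-poor promoter, 23.1% were detected. The medians of CpG and GC content pool CpG-rich and CpG-poor genes. A part of CpG content in the HOX counts was not tested. The CpG classes were chosen after the values had been seen.

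**Figure D4:**
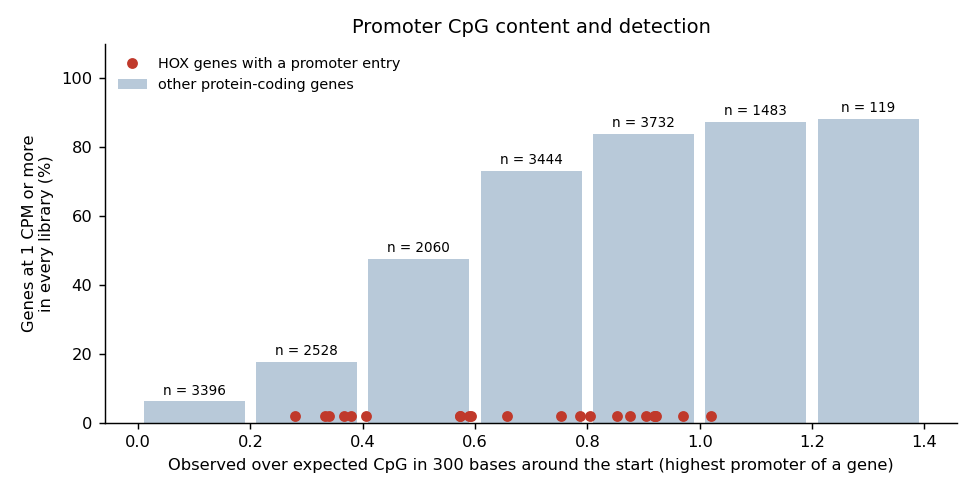
Percentage of other protein-coding genes detected (bars, n above each) by the observed over expected CpG ratio of their promoter, and the 22 HOX genes with a promoter entry (points, all drawn at the foot of the axis because none was detected). Detection climbs with CpG content in the bars, to 88.2% of the 119 genes at a ratio of 1.2 or more. The HOX points lie between ratios of 0.2 and 1.2. Their height was fixed before any split by CpG, as no HOX gene described was detected.

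The clusters also encode microRNAs, which repress messages that carry a match to their seed, bases 2 to 8. Those of the miR-10 and miR-196 families are known to target HOX messages. Their mature sequences, from RefSeq (GRCm38.p6), have the seed in capitals. Mir10a lies in HoxB, Mir10b in HoxD, Mir196b in HoxA, and miR-196a comes from a gene in HoxB and another in HoxC.
miR-10a-5p: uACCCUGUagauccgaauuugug
miR-10b-5p: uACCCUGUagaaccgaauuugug
miR-196a-5p: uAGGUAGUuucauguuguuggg
miR-196b-5p: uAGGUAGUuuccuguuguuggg

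The seed ACCCUGU is shared by the miR-10 pair and AGGUAGU by the miR-196 pair. Their hairpin rows had 0 counts, but a polyA library does not measure mature microRNAs, so nothing follows from this about their level. Matches to the seeds were sought in the longest 3′ untranslated region of each gene, on the transcript's strand, as the reverse complement of the seed. The miR-10 match, ACAGGGT, was found in 3 of the 38 HOX genes (Hoxa3, Hoxb3 and Hoxd1), compared with 12.5% of 21039 genes. The miR-196 match, ACTACCT, was found in 8 of 38 (Hoxa4, Hoxa5, Hoxa7, Hoxa9, Hoxb1, Hoxb6, Hoxb7 and Hoxc8), compared with 6.10% of genes. None of the 38 had both. Hoxa7 held 4 miR-196 matches and Hoxc8 held 2, and the other genes 1 each. The matches of Hoxa3 and Hoxa5, the highest HOX genes of each group per kb, are shown in capitals with the bases around them. They lie on the minus strand at chr6:52169653-52169675 (Hoxa3) and chr6:52202118-52202140 (Hoxa5). A match is a description of the letters and does not show that a site is used.
Hoxa3, miR-10 match: actctttgataagaaACAGGGTa
Hoxa5, miR-196 match: gatatttttattcaaACTACCTa

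Messages for the proteins that HOX factors work with were detected. Many TALE homeodomain proteins bind DNA together with HOX proteins. The list of them used here also holds the repressors Tgif1 and Tgif2, and Pbxip1, which binds PBX and is not a homeodomain protein. All 11 genes described of this list were detected, against 51.1% of protein-coding genes. Tgif1, a TALE repressor, averaged 47.4 CPM per kb, Pknox1, a partner of PBX, 5.89, and Pbx4, a member of the PBX family of HOX cofactors, 3.56. Of 29 Polycomb genes, whose complexes keep HOX genes silent, 27 were detected, also against 51.1%, led by Rbbp7 at 245 CPM per kb, the H2A ubiquitin ligase Rnf2 at 36.6 and Rbbp4 at 19.7. Ezh2, the H3K27 methyltransferase, averaged 6.67 CPM per kb and was named after its value had been seen. The members that were not detected were Ring1, with 19, 13 and 9 counts, and Cbx7, with 6, 6 and 5.

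Genes that keep HOX genes active were counted too. All 14 genes of the Trithorax and H3K27 demethylation list were detected, against the same 51.1%, with the complex subunits Dpy30 at 82.3 CPM per kb, Wdr5 at 30.3 and Rbbp5 at 13.6 highest. The boundary list, CTCF, cohesin and MAZ, which divide the HOX clusters into domains, was detected for 9 of 9 genes, against 51.1% of protein-coding genes, and Smc3 at 32.1, Rad21 at 26.2 and Smc1a at 24.0 CPM per kb led it. Counts of this kind say that the messages were there, and not whether a complex sat on a HOX cluster.

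Retinoic acid is a known inducer of anterior HOX genes, and messages of its pathway were detected in part. Of 16 genes, 8 were detected (50%), close to the 51.1% of protein-coding genes. Crabp1, which binds retinoic acid in the cytosol, averaged 1197 CPM per kb, Rdh10, which makes retinaldehyde, 9.87 and the receptor Rarg 8.52. Rxrg and Aldh1a2 had 0 counts in every library. Rarb and Cyp26a1, retinoic acid target genes named after their values had been seen, had 3, 8 and 5 counts and 0, 3 and 0 counts. Cyp26b1 and Stra6, also named after their values had been seen, were detected. Cyp26b1 had 49, 47 and 44 counts and Stra6 had 29, 27 and 48.

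Other homeobox genes of the axis were mostly below detection. Of 13 ParaHox and flanking homeobox genes, 1 was detected, against 51.1% of protein-coding genes. It was En1, with 492, 536 and 550 counts, or 29.2 ± 0.636 CPM (SD, n = 3). En1 is known from the midbrain-hindbrain boundary and from a lineage of dermal fibroblasts. Gbx1 had 3, 2 and 0 counts and Gsx1 had 2, 0 and 0. Cdx2, Gsx2, Pdx1, Evx1, Evx2, Gbx2 and Mnx1 had 0 counts.

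Positional genes outside the HOX and ParaHox families were less uniform. Of 32 such genes 15 were detected (46.9%), near the 51.1% of protein-coding genes. The highest were Alx1, a gene of the frontonasal mesenchyme, at 16.4 CPM per kb, Tbx15 at 11.6 and Tbx18 at 5.69. Tbx15 and Tbx18 are T-box genes known from the skeleton and dermis and from the somites. Alx1 had 1563, 1768 and 1775 counts, Tbx15 had 803, 776 and 759, and Tbx18 had 435, 529 and 484. Genes named after their values had been seen include Dlx2, of the pharyngeal arches, at 4.44 CPM per kb, Shox2 at 3.98, Pitx1 at 3.68, Emx2 at 2.29 and Otx1 at 1.27. Tbx2 and Otx2 had 0 counts. Tbx5 had 0, 0 and 3 counts, Tbx4 had 0, 1 and 0, and Hand1 and Hand2 had 1 each over the 3 libraries. By contrast, Tbx3 was detected with 356, 260 and 266 counts, and Pitx1 with 184, 151 and 191. Tbx3 too was named after its values had been seen.

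**Figure D5:**
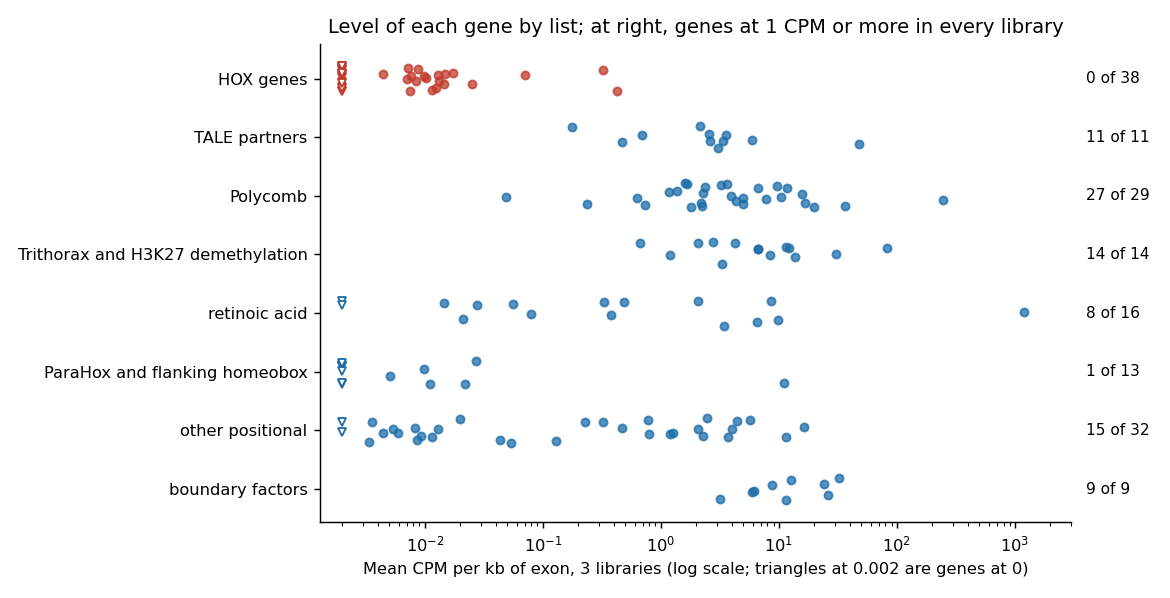
Mean CPM per kb of exon over the 3 IL-1 libraries (log axis) of 38 HOX genes and of the genes of 7 other lists, with genes at 0 as open triangles, and the number detected of the number in the list at right. Every HOX point shown lies below 1 CPM per kb, as do some points of other lists, the TALE and Trithorax lists among them. Detection was called on CPM not divided by length. By that rule 0 of 38 HOX genes were detected, and all 11 genes of the TALE list, all 14 Trithorax genes and 9 of 9 boundary genes were.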

How the data were processed

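PolyA RNA of RelA-/- RelA-DsRed NIH3T3 cells was measured. Per the labels' protocols, cells passaged no more than 20 times were lysed, reverse transcription was run on the lysate, and cDNA was amplified over 10 cycles before tagmentation. The deposited tables hold raw counts per Entrez gene ID and are not normalized. The tools named in the submitters' processing notes are CASAVA, STAR and featureCounts, and the build is mm10. Their versions, the annotation, the strand setting and the multi-mapping rule were not given in the sources used here. No molecular identifiers are mentioned, so counts are reads and intervals cover counting error only. The 9 copied tables were left out.

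Symbols came from a RefSeq table by Entrez ID (25275 of 27179 matched). CPM were computed from library totals, and CPM per kb from merged GENCODE M21 exons, which may differ from the authors' gene models. Scaling factors of edgeR 4.0.16 (TMM, and relative log expression) were 0.98 to 1.02. No test between groups was possible, so none was made. The 0 count of a single library allows 0.161 to 0.174 CPM. The members and lists were chosen with earlier results of these data known. Genes were named by rule: the 38 HOX genes, rows inside and 3 protein-coding genes beside each cluster, and per list the 3 highest per kb and those at 0. Other genes of the lists were named outside this rule, and only some are marked as chosen after their values were seen. Those without a mark include Ring1, Cbx7, Gbx1, Gsx1, Tbx4, Tbx5, Hand1 and Hand2. 1 HOX gene and 4 genes of the lists are not reported here and stand in no count or figure of their groups. The planned comparison of HOX proteins was not made. Promoter and seed searches were added later. Python 3.11.15, numpy 2.4.6, pandas 2.3.3 and scipy 1.17.1 were used.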

Additional observations from a re-analysis of the deposited data

How the results depend on the processing

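The CPM of each of 38 HOX genes was recomputed with both sets of scaling factors and without each library, and its level per kb with both other lengths. All these CPM stayed within 1 SD between libraries of the reported value, but this is a wide margin at so few counts. A mean of 3 libraries cannot move by 1 of their SD when 1 library is left out, so that outcome was fixed in advance. Leaving out replicate 3 took Hoxa2 to 0.0276 CPM from the 0.126 of all libraries. Per kb of coding sequence 14 levels moved by more than 1 SD, such as Hoxa5 to 0.993 and Hoxa3 to 0.113 CPM per kb, where Hoxa3 stood level with Hoxa2. List counts stayed the same with other scaling factors, with 0.5 CPM and without each library, while at 2 CPM TALE had 10, Polycomb 26, retinoic acid 7 and the other positional genes 13. The number of detected HOX genes, 0 of 38 in all and 0 in HoxA, was 1 without IL-1 replicate 1, when Hoxa5 passed, and 3 where at least 1 count in every library was enough; leaving out each library gave 0 to 1. Leaving out replicate 1 also took the coefficient of variation of Hoxa5 to 5.19% and that of Hoxa6 to 48.8%, and leaving out replicate 2 took that of Hoxa5 to 93.3%. The share of HoxA was 80.5% with counts not divided by length and 79.8% per kb of coding sequence. Spearman's rho between level and paralog number was -0.74 to -0.46 in HoxA when each library was left out, 0.13 to 0.33 in HoxB, -0.50 to -0.31 in HoxC and -0.34 to 0.53 in HoxD. In HoxD it was -0.0351 with counts not divided by length and -0.0609 per kb of exon that no other gene overlaps. The values for HoxB, HoxC and HoxD rest on 6 or 7 counts, so depth sets no direction there. The share of other CpG-rich genes detected stayed between 80.7 and 83.9% under alternatives added late, with the values known. No paired analysis was possible because a single group had counts of its own.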
